A study of Homo sapiens with 4 samples.

Results

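Cholesterol and fatty acid synthesis genes were followed in 2 human breast cancer lines. The set comprised 39 genes chosen by symbol: 18 sterol steps, 4 regulators, 12 fatty acid synthesis steps and 5 genes of fatty acid activation and mitochondrial entry. All 39 had a row among the 15279 named genes of the deposited table, and all 39 passed the filter on low values. RNA-seq libraries came from MDAMB231, the widely used triple-negative line, called parental here, and from MDAMB231Br, a brain metastatic line derived from it, with 2 libraries each. Both lines grew in DMEM with fetal bovine serum, with no treatment named in the labels. Each line is a single cultured line without brain tissue around it. Whether the 2 libraries of each line stem from separate cultures is not stated, so p-values reflect the spread among these 4 libraries alone, and that spread may be technical. Table columns give the line only, and the letters A and B are assigned by column order.

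Cells make cholesterol from acetyl-CoA through mevalonate, farnesyl diphosphate, squalene and lanosterol. Fatty acid synthesis starts from the same precursor with ATP citrate lyase, acetyl-CoA carboxylase and fatty acid synthase, followed by elongases and desaturases. SREBP transcription factors, encoded by SREBF1 and SREBF2, switch on both arms when membranes are short of sterol. The escort protein SCAP then carries them to the Golgi, where proteases release them, whereas INSIG proteins hold SCAP in the endoplasmic reticulum when sterol is plentiful. The brain makes its own cholesterol, since plasma lipoproteins hardly cross the blood-brain barrier.

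Named genes held 25835225 to 30771290 reads per library. Of 14424 genes tested with limma-trend, 14.4% had an adjusted p below 0.05 (Benjamini-Hochberg over all genes). VIM and CD44, markers of this mesenchymal-like line, measured at least 30299 normalized reads in every library, and CDH1, the epithelial cadherin, at most 14.8. Of the other genes fixed as absent or low in the line, ERBB2 had 955 to 1239, EPCAM 91.2 to 398 and GATA3 227 to 301. ESR1 and FOXA1 had at most 26.5. SPARC, fixed as a marker of the line, was low in the parental libraries at 33.3 and 48.5 and had 4541 and 4252 in the brain metastatic ones. Markers of the line moved both ways. VIM had 42476 and 38423 in parental and 118095 and 119552 in brain metastatic libraries. S100A4 had 8019 and 12401 against 1184 and 948, and CAV1 had 27966 and 27283 against 10799 and 9773. AXL, ANXA1, KRT18 and KRT8 had at least 1670 in every library. None of the fibroblast or hepatocyte markers fixed for this check had a row. PECAM1, an endothelial marker, had 70.8 and 146 in parental and 193 and 218 in brain metastatic libraries. SLC1A3, an astrocyte marker, had 187 and 277 against 73.0 and 141. The endothelial CDH5, neuron SYP and adipocyte PLIN1 had at most 27.2. CSF1R, a macrophage marker, was the only row of its list and measured 264 and 338 in the parental and 33.6 and 55.1 in the brain metastatic libraries. Brain metastatic library B stood apart from the other 3. The 11 interferon response genes summed to 72048 normalized reads in it against 10519 to 12270 elsewhere. The 10 endoplasmic reticulum stress genes with a row summed to 353558 against 78267 to 102164. HSPA5 and HSP90B1 made up most of that sum, with 141567 and 196691 in library B. The list was not uniform: TRIB3 (476) and ASNS (1573) were lowest in library B. ATF4 had 4315 there against 6339 in brain metastatic library A. DDIT3, DNAJB9, HERPUD1, SDF2L1 and CHAC1 were highest in library B.

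HMGCS1, EBP, SC5D and SCD fell and NSDHL, ELOVL1 and CPT1C rose in brain metastatic cells. These 7 of the 39 members passed the test, 3 higher and 4 lower, which stands beside 14.4% of all genes tested, 8.61% higher and 5.8% lower. The share of members called is thus close to that of all genes. The libraries of the lines did not overlap for 28 of 39 members, beside 61.3% of all genes. Of those, 20 were lower in both brain metastatic libraries, beside 29.7% of all genes, and 8 were higher, beside 31.7%. The median log2 fold change was -0.20 over the members and 0.01 over all genes. Leaving out a parental library leaves 1 sample in that line, assumed to vary like the brain metastatic pair, from which the spread is then estimated. In those fits none of the 39 members was called by limma-trend, although 8 (A left out) and 10 (B left out) had an unadjusted p below 0.05, and 421 and 429 of all genes were called (2.92% and 2.97%). The lines' libraries did not overlap for any of the 7, so leaving out 1 library could not turn their direction. As to size, leaving out parental library A and then B gave a log2 fold change of -1.62 and -1.31 for EBP. It was 0.99 and 0.82 for NSDHL and 0.83 and 0.85 for ELOVL1. With the spread taken from the parental pair, without brain metastatic library A 16 members were called, beside 36.4% of all genes, and without brain metastatic library B 12, beside 21.8%. With all 4 libraries, 18 members had an unadjusted p below 0.05 by limma-trend, beside 31.8% of all genes. edgeR's quasi-likelihood test on recovered reads called 8 members, 3 higher and 5 lower, beside 8.96% of all genes higher and 6.48% lower. limma-voom called 10 members, beside 14.8%. DESeq2 called 14, 4 higher and 10 lower, beside 20.2% of all genes, 11.3% higher and 8.92% lower.

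**Figure D1:**
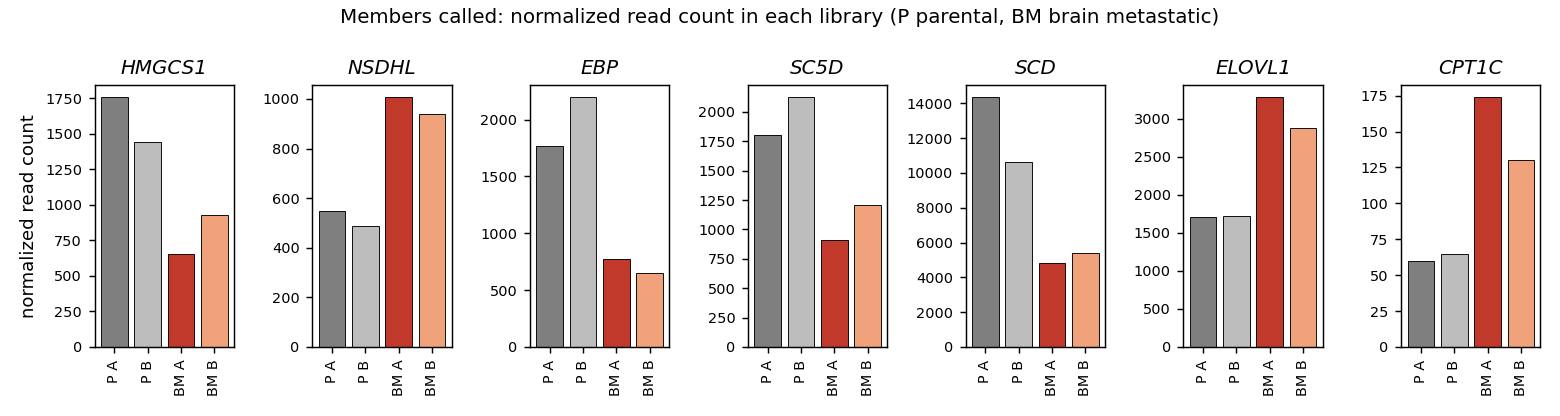
Normalized read count (vertical axis, starting at 0, a scale for each gene) of the 7 members with an adjusted p below 0.05 in parental (P) and brain metastatic (BM) libraries A and B. Bars are single libraries, and in each gene both bars of one line stand above both of the other, as for EBP with 1770.4 and 2195 against 778 and 655.

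The early sterol steps make isoprenoids. HMGCS1, the synthase that forms HMG-CoA, had 1757 and 1444 normalized reads in the parental line and 653 and 931 in the brain metastatic line (library A before library B, as throughout). Both brain metastatic values lay below both parental values, and the fitted log2 fold change was -1.03 ± 0.267 (SE, n = 2 per line, limma-trend adjusted p = 0.0392). It was -1.29 without brain metastatic library B and -0.77 without brain metastatic library A. IDI1, the isomerase that makes the reactive isoprenoid unit, measured 3817 and 5151 in parental and 2822 and 1828 in brain metastatic libraries. Its libraries did not overlap, but it did not pass the test (log2 fold change -0.96 ± 0.283 SE, adjusted p = 0.0571). It was called after TMM scaling (adjusted p = 0.049). ACAT2, the cytosolic thiolase that opens the pathway, had 2291 and 2689.9 against 1824 and 1168 normalized reads (adjusted p = 0.0993). In the GENCODE annotation 52.3% of its exon bases also belong to other genes, among them SOD2 and TCP1 on the opposite strand, so its reads are uncertain. SOD2 had 5496 and 6725 in parental and 6394 and 18143 in brain metastatic libraries, and TCP1 had 11037 and 10171 against 10298 and 8726. Of the kinases and the decarboxylase between HMG-CoA and IDI1, MVK, PMVK and MVD had log2 fold changes of 0.21, 0.21 and -0.12, and FDPS, which joins isoprenoids to farnesyl diphosphate, had -0.20. The libraries of the lines overlapped for all 4 of these genes, whereas they did not for 61.3% of all genes. The 95% interval of MVK ran from -0.45 to 0.87 and that of FDPS from -0.85 to 0.44, so both intervals included 0. In GENCODE 18.6% of the exon bases of FDPS also belong to RUSC1-AS1, and 8 pseudogene copies of FDPS are annotated. How reads were divided among them is not known. RUSC1-AS1 had at most 127 normalized reads in any library.

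Behind farnesyl diphosphate, squalene is formed, closed into lanosterol and trimmed to cholesterol. FDFT1, squalene synthase, measured 2959.7 and 3161 in parental and 1971 and 1087 in brain metastatic libraries. Its libraries did not overlap, and the log2 fold change of -1.06 ± 0.303 (SE) missed the threshold (adjusted p = 0.0525). SQLE, squalene epoxidase, went the other way with 718 and 693 against 864 and 852, and did not pass (adjusted p = 0.434). LSS, which closes the ring, had 1689 and 1198 in parental and 809 and 769 in brain metastatic libraries (log2 fold change -0.85, adjusted p = 0.0628). MSMO1, a methylsterol oxidase, had 2724 and 3550.3 against 2503 and 1467 (adjusted p = 0.155). In both genes the lines did not overlap, as for 61.3% of all genes, and library B of the brain metastatic line was the lowest of the 4.

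NSDHL, a dehydrogenase of the complex that strips methyl groups from the sterol ring, rose. It measured 550.3 and 488 in parental and 1006 and 939 in brain metastatic libraries, a log2 fold change of 0.91 ± 0.239 (SE, adjusted p = 0.0415). HSD17B7, the ketoreductase of that complex, had 127 and 198 against 302 and 225 (log2 fold change 0.71, adjusted p = 0.192). All brain metastatic values of both genes exceeded the parental ones, as for 31.7% of all genes, in contrast to MSMO1 of the same complex. TM7SF2, a sterol reductase, measured 77.6 and 82.5 in parental and 123 and 81.6 in brain metastatic libraries, which overlapped.

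The last steps held the largest decrease of the set. EBP, the isomerase that shifts a double bond in the sterol ring, had 1770.4 and 2195 normalized reads in parental and 778 and 655 in brain metastatic libraries, 2.77-fold less by the means (log2 fold change -1.46 ± 0.244 SE, adjusted p = 0.00793). SC5D, the desaturase after it, had 1800.2 and 2123 against 909 and 1205 (log2 fold change -0.90 ± 0.249 SE, adjusted p = 0.0475). SC5D was just inside the threshold and was called neither without the filter on low genes nor without brain metastatic library A (log2 fold change -0.70, adjusted p = 0.0513). DHCR7, the reductase that makes cholesterol, was just outside with 1577 and 1449 against 953 and 689 (log2 fold change -0.90 ± 0.254 SE, adjusted p = 0.051). edgeR's quasi-likelihood test called DHCR7 (adjusted p = 0.0489). These 3 enzymes act in sequence, and for each the lines' libraries did not overlap, which held for 61.3% of all genes (29.7% lower).

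CYP51A1, the lanosterol demethylase, is uncertain. It had 47.8 and 40.7 in parental and 33.6 and 18.0 in brain metastatic libraries, 13.8 parental normalized reads per kilobase of its longest transcript, against 292 for LSS before it and 1383 for MSMO1 after it. In GENCODE 83.2% of its exon bases are shared with other genes and 3 pseudogene copies are annotated. The copies CYP51A1P1 and CYP51A1P2 had levels like its own, with 24.97 to 58.9 normalized reads across libraries.

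**Figure D2:**
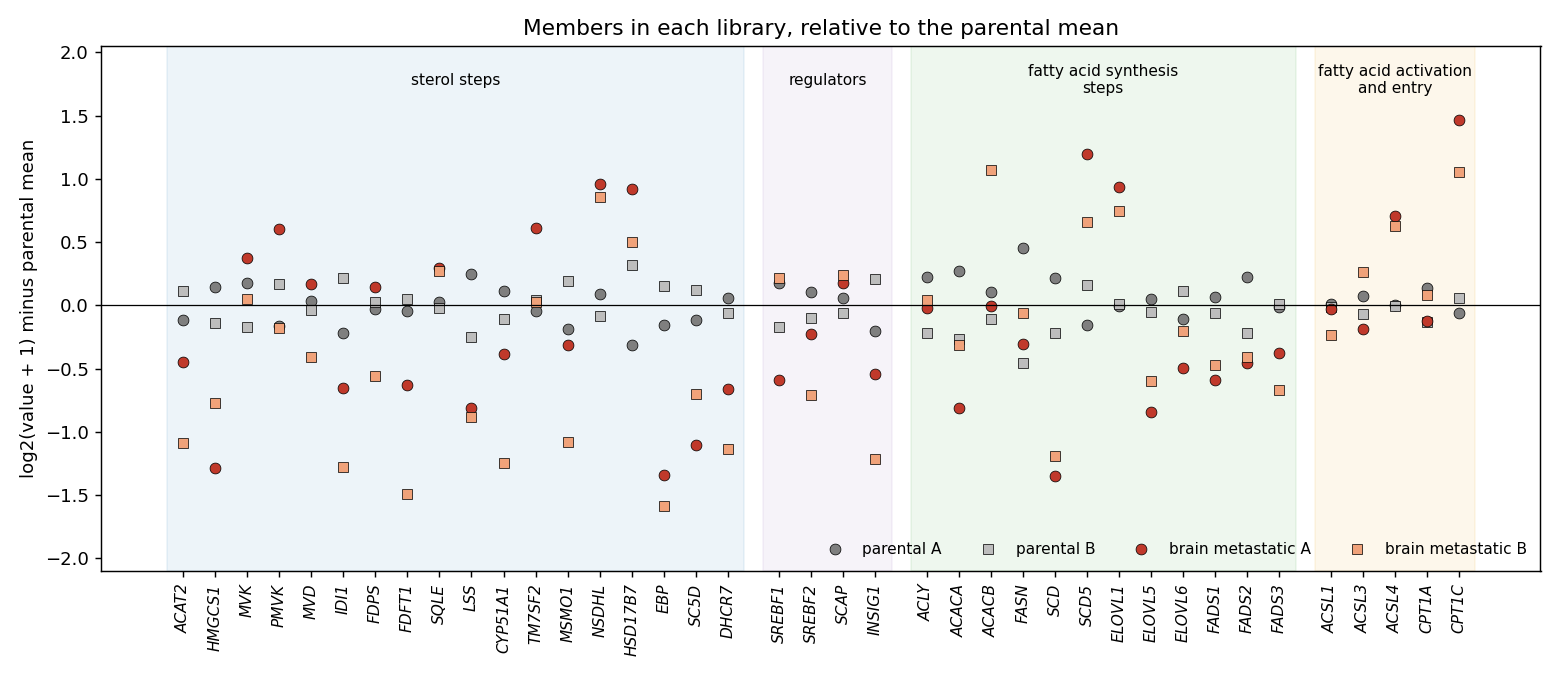
Level of each member in every library as log2(value + 1) minus the mean of the parental libraries (vertical axis, log scale), in pathway order within each role (shaded). Grey symbols are parental and red or orange symbols brain metastatic libraries. EBP lies at -1.34 and -1.59 and CPT1C at 1.47 and 1.05 in the brain metastatic line (A, then B).

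In all, 4 of the 18 sterol steps passed, 3 lower and 1 higher, and 14 did not, beside 14.4% of all genes called. The lines' libraries did not overlap for 13, beside 61.3% of all genes, with 10 lower (29.7% of all genes) and 3 higher (31.7%) in brain metastatic cells. Summed over the 18 genes, normalized reads per kilobase were 9990.0 and 11206 in parental and 8322 and 6014 in brain metastatic cells. TMM scaling, CPM scaling and limma-voom each called 7 sterol steps, beside 15.2%, 15.4% and 14.8% of all genes, and DESeq2 called 8, beside 20.2%, all with NSDHL as the only one higher, and the genes added by the first 3 settings were DHCR7, FDFT1 and IDI1. DESeq2 added these and LSS. Relative to the parental mean, the median log2 difference of the sterol steps was -0.35 in brain metastatic library A and -0.74 in library B. The number called changed with the library left out, as for all members above.

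No regulator passed the test. SREBF2, which drives mainly sterol genes, had 2559.6 and 2219 normalized reads in parental and 2039 and 1454 in brain metastatic libraries (log2 fold change -0.47 ± 0.252 SE, adjusted p = 0.239). Both brain metastatic values lay below the parental ones. SREBF1, which drives mainly fatty acid genes, had 1002 and 788 in parental and 589 and 1032 in brain metastatic libraries, so the brain metastatic libraries spanned the parental range (adjusted p = 0.716). SCAP had 1328 and 1224 against 1443 and 1504 (adjusted p = 0.554). INSIG1, itself a strongly SREBP-driven gene, had 4893 and 6492 in parental and 3860.4 and 2431 in brain metastatic libraries. Its log2 fold change of -0.88 ± 0.286 (SE) did not pass (adjusted p = 0.0769), though DESeq2 called it (adjusted p = 0.0294). None of the 4 regulators passed, beside 14.4% of all genes, and 1 had an unadjusted p below 0.05 by limma-trend, beside 31.8%. edgeR's quasi-likelihood test called none either, beside 15.4% of all genes. With 4 genes such counts do not set the regulators apart from all genes.

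Promoters of the called sterol genes and of SREBF2 are shown because SREBPs bind sterol response elements, usually next to the CCAAT-binding factor NF-Y. Sequences are the 150 bases before the first start listed by RefSeq (GRCh38.p14), 5′ to 3′ on the gene's strand, with TCACNCCAC and CCAAT in capitals on either strand (ATTGG is CCAAT read on the opposite strand).
SREBF2, chr22:41832955-41833104, plus strand: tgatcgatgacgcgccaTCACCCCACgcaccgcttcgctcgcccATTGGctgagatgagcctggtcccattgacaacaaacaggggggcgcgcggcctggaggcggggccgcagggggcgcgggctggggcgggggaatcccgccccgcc
HMGCS1, chr5:43313413-43313562, minus strand: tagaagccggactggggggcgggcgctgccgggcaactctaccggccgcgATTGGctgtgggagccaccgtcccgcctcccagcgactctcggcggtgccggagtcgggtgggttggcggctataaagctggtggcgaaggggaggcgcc
NSDHL, chrX:152830913-152831062, plus strand: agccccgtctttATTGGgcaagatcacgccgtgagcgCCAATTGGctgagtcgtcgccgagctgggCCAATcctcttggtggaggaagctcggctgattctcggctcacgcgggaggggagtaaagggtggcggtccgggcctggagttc
EBP, chrX:48521658-48521807, plus strand: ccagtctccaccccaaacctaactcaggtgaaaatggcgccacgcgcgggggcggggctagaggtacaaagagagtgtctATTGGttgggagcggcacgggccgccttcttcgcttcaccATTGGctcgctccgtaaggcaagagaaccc
SC5D, chr11:121292621-121292770, plus strand: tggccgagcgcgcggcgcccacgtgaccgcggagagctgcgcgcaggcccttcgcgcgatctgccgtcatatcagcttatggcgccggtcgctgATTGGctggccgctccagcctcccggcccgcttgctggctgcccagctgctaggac
SREBF2 carries the sterol element with a CCAAT box close behind it. Among the 35 members with a RefSeq promoter, TCACNCCAC occurred in SREBF2 alone within 250 bases before and 50 after the start, against 1.08% of the promoters of all genes of the table that have one (10498 promoters). CCAAT occurred in 12 of 15 sterol steps (80.0%), in 6 of 11 fatty acid synthesis steps (54.5%) and in 36.7% of those promoters. The GC box GGGCGG occurred in 14 of 15 sterol steps (93.3%) and 8 of 11 fatty acid synthesis steps (72.7%), against 70.1%. NSDHL, which rose, holds 4 CCAAT matches in its printed window, some of them overlapping, and EBP, which fell, holds 2. These are letter matches only, and 1 fixed pattern cannot show whether other forms of the sterol element are present. ACAT2, FDFT1, SQLE and FASN had no promoter sequence in the reference used, so they were not searched.

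The opening steps of fatty acid synthesis did not pass the test. ACLY, the lyase that supplies cytosolic acetyl-CoA, had 9035 and 6654 normalized reads in parental and 7653 and 7999 in brain metastatic libraries, and its interval of the log2 fold change ran from -0.53 to 0.56. ACACA, the main acetyl-CoA carboxylase, had 4009 and 2759 against 1895 and 2669 (log2 fold change -0.56, adjusted p = 0.205), with no overlap of the lines but a gap narrower than the difference between the parental libraries. FASN, fatty acid synthase, had 3796 and 2026 against 2246 and 2665, the widest parental gap of the set on a log scale (adjusted p = 0.725). ACACB, the mitochondrial carboxylase, was low at 137 and 118 in parental libraries and had 127 in brain metastatic library A but 269 in library B.

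Desaturases and elongases held the called fatty acid genes. SCD, which makes oleate and palmitoleate, fell from 14333 and 10610.1 to 4838 and 5409.6 normalized reads, 2.43-fold less by the means (log2 fold change -1.27 ± 0.239 SE, adjusted p = 0.0128). Its pseudogene SCDP1 was lower too, at 59.7 and 43.7 against 12.5 and 22.3, and the files do not tell how reads were divided between them. SCD5, the second human stearoyl-CoA desaturase, had 551 and 685 in parental and 1412 and 972 in brain metastatic libraries. It did not pass (log2 fold change 0.93 ± 0.277 SE, adjusted p = 0.0598), although its lines did not overlap and DESeq2 called it (adjusted p = 0.0219). SCD5 made up 6.23% and 10.0% of SCD and SCD5 normalized reads per kilobase in parental libraries and 33.5% and 23.7% in brain metastatic libraries.

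ELOVL1, the elongase for saturated very long chains, rose from 1706 and 1724 to 3281 and 2880.2 normalized reads (log2 fold change 0.84 ± 0.219 SE, adjusted p = 0.0394). ELOVL5, which elongates polyunsaturated chains and had the highest level per kilobase of all members in parental cells (3904 normalized reads per kilobase), had 12473 and 11585 against 6692 and 7918. It missed the threshold (log2 fold change -0.72 ± 0.219 SE, adjusted p = 0.0632), but was called by DESeq2 (adjusted p = 0.0265) and by limma-trend without brain metastatic library B (adjusted p = 0.0171). ELOVL6, which extends palmitate, had 4961 and 5776 against 3795 and 4639 (adjusted p = 0.325). FADS1, FADS2 and FADS3, the front-end desaturase family, had log2 fold changes of -0.53, -0.43 and -0.53 and adjusted p between 0.132 and 0.251, with no overlap of the lines in any of the 3. Of the 12 fatty acid synthesis steps, 1 passed as higher, 1 as lower and 10 did not pass, near the 14.4% of all genes called. For 9 the lines did not overlap, beside 61.3% of all genes, 7 of them lower (29.7% of all genes) and 2 higher (31.7%). Their summed normalized reads per kilobase were 15050.3 and 12960 in parental and 10612 and 11083 in brain metastatic libraries.

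**Figure D3:**
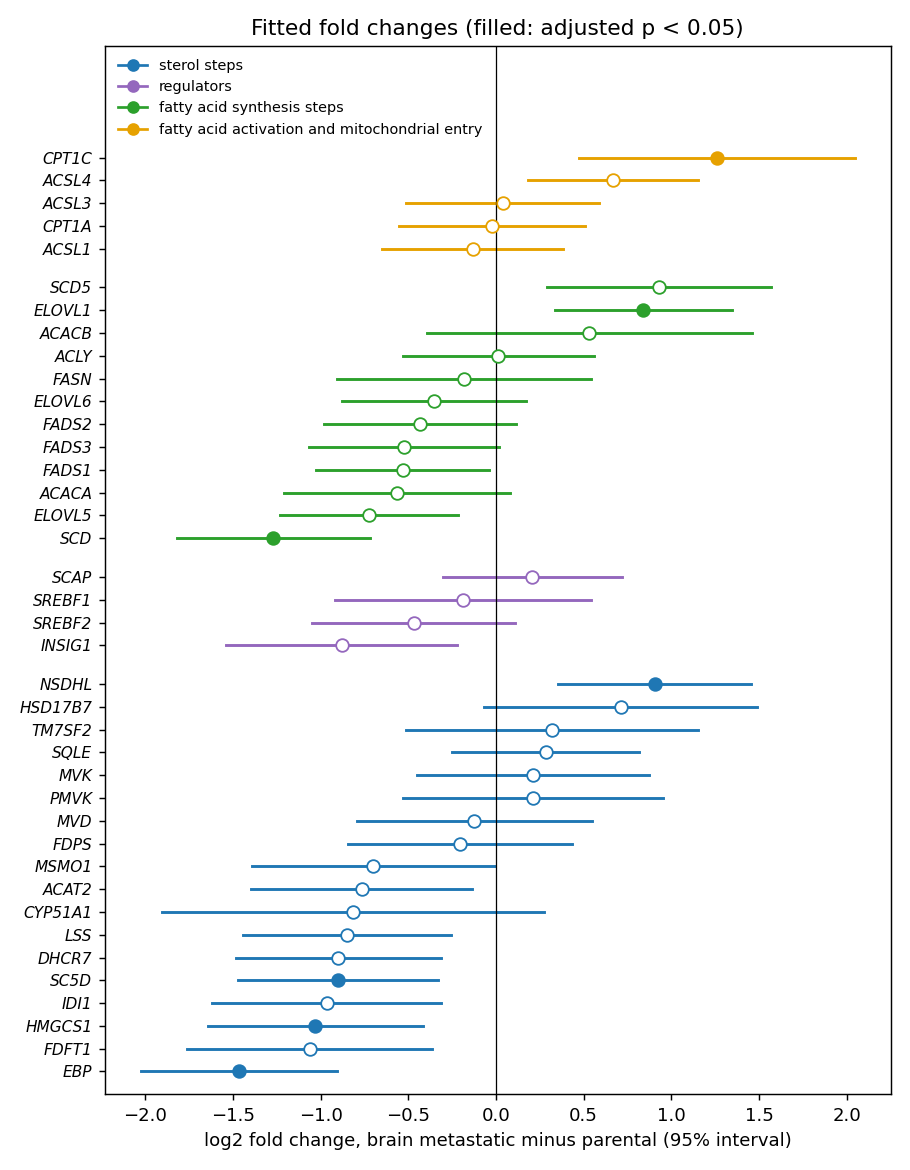
Fitted log2 fold change of each member, brain metastatic minus parental (horizontal axis), with its 95% interval as a line, ordered within each role (colour). Filled circles had an adjusted p below 0.05, and they run from EBP at -1.46 to CPT1C at 1.26.

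Fatty acids are activated by acyl-CoA synthetases before use and enter mitochondria through carnitine palmitoyltransferase. CPT1C, the brain-type form, which lies in the endoplasmic reticulum and has little catalytic activity, rose from 59.7 and 65.0 to 174 and 130.3 normalized reads (log2 fold change 1.26 ± 0.342 SE, adjusted p = 0.0452). It was the largest increase of the set but rested on 67 reads in its lowest library, and it was not called without the filter on low genes. CPT1A, the main form, had 2357 and 1951 in parental and 1964 and 2272 in brain metastatic libraries, and the interval of its log2 fold change ran from -0.55 to 0.51. ACSL4, which prefers arachidonate, had 7296 and 7244 against 11853 and 11242 (log2 fold change 0.67 ± 0.21 SE, adjusted p = 0.0705). The lines were far apart relative to their own spread, but the gene did not pass. ACSL1 and ACSL3 had log2 fold changes of -0.13 and 0.04, with intervals from -0.65 to 0.38 and from -0.51 to 0.59. Of these 5 genes CPT1C alone passed, and for CPT1C, ACSL4 and ACSL1 the lines did not overlap, beside 14.4% and 61.3% of all genes.

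**Figure D4:**
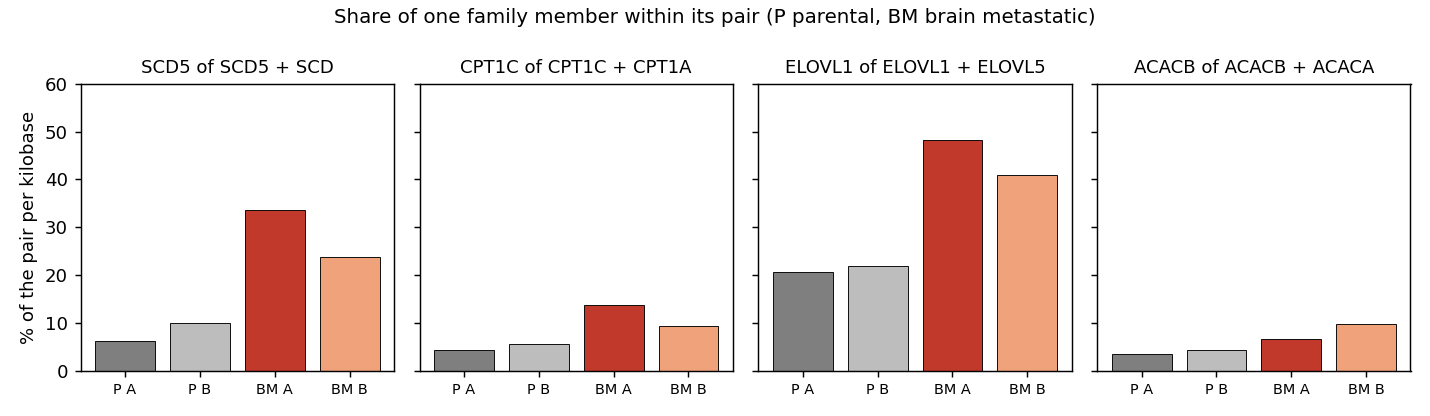
Share of normalized reads per kilobase held by 1 gene of a pair (vertical axis, %), in parental (P) and brain metastatic (BM) libraries A and B, with a bar for each library. SCD5 goes from 6.23% and 10.0% to 33.5% and 23.7%, and CPT1C from 4.36% and 5.65% to 13.7% and 9.35%. The pairs were picked with their values known.

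ELOVL1 held 20.6% and 22.0% of ELOVL1 and ELOVL5 together in parental libraries and 48.2% and 40.8% in brain metastatic libraries. ACACB held 3.52% and 4.37% of the carboxylase pair in parental and 6.65% and 9.69% in brain metastatic libraries. In each of the 4 pairs plotted both brain metastatic shares exceeded both parental shares. The acyl-CoA synthetases had another pattern: ACSL4, the highest of the 3 in parental cells, went from 1363 to 2165 normalized reads per kilobase, ACSL3 from 1025 to 1064 and ACSL1 from 386 to 353. No test was made, since the pairs were picked with their values known.

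Sterol and fatty acid steps were then set against each other. The median log2 fold change was -0.73 over the sterol steps and -0.39 over the fatty acid synthesis steps, a difference of -0.34. Relative to the parental mean, brain metastatic library A had medians of -0.35 and -0.42, a difference of 0.07, and library B had -0.74 and -0.26, a difference of -0.47. The parental libraries themselves stood at -0.12 and 0.12. Without brain metastatic library B the difference was therefore 0.07, of the opposite sign. It was -0.02 without parental library B, and without CYP51A1 and ACAT2, whose exons overlap other genes, it was -0.06. Of the brain metastatic libraries only B thus had a lower median for the sterol arm than for the fatty acid arm.

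The brain metastatic libraries differed between themselves along the same line. Library B was lower than library A for 16 of 18 sterol steps and for 3 of 12 fatty acid synthesis steps, against 49.95% of all genes tested. The median log2 difference of B from A was -0.52 for sterol steps and 0.14 for fatty acid synthesis steps. HMGCS1 and SC5D were the sterol steps with library B higher. Sterol steps were not alone in this: library B was also lower for 24 of 30 beta-oxidation genes (median -0.37) and for 12 of 19 other sterol and isoprenoid genes (-0.14). Relative to the parental mean FDFT1 stood at -0.63 (A) and -1.49 (B), and INSIG1 at -0.55 and -1.21. SREBF1 had the opposite order, -0.59 and then 0.22. In parental cells library B was lower than A for 8 of 18 sterol steps and 8 of 12 fatty acid synthesis steps. Library B of the brain metastatic line is also the one with the high interferon and endoplasmic reticulum stress sums given above, the latter mostly from HSPA5 and HSP90B1. The part of either response in these differences was not tested. EBP and SCD were low in both brain metastatic libraries, at -1.34 and -1.59 and at -1.35 and -1.19.

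**Figure D5:**
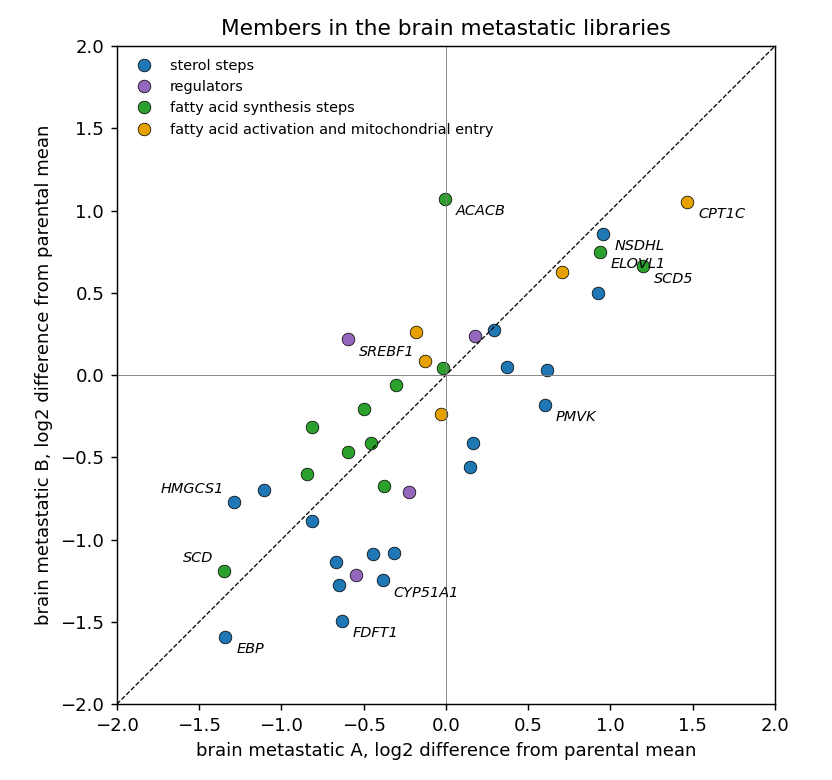
Log2 difference of each member from the parental mean in brain metastatic library A (horizontal axis) and library B (vertical axis), coloured by role. The dashed line marks equal values, and 16 of 18 sterol steps lie below it against 3 of 12 fatty acid synthesis steps.

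Genes around the pathway were taken from 6 lists. Of 166 distinct genes tested, 29 were called, beside 14.4% of all genes (8.61% higher and 5.8% lower). Few of the 29 were called in the fits with 1 parental sample, and most were called in those with 1 brain metastatic sample. The lines' libraries did not overlap for any of the 29, so leaving out 1 library could not turn their direction. The SREBP processing and sterol sensing list held 16 tested genes, of which 1 rose, 3 fell and 12 did not pass, with a median log2 fold change of -0.29. MBTPS2, the Golgi protease that makes the final cut in SREBPs, fell from 2862 and 3075 to 882 and 1114 normalized reads (log2 fold change -1.58 ± 0.234 SE, adjusted p = 0.00489). FBXW7, the ligase adaptor that targets nuclear SREBPs for destruction, rose from 601 and 489 to 1239 and 1527 (log2 fold change 1.34 ± 0.252 SE, adjusted p = 0.0128). For both genes the lines' libraries did not overlap, as for 61.3% of all genes.

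The counts of each further list stand beside 14.4% of all genes called, 8.61% higher and 5.8% lower, and were not tested as lists. Other sterol and isoprenoid genes numbered 19 tested, of which 0 rose, 1 fell and 18 did not pass (median -0.06). ACAT1, the mitochondrial thiolase, fell from 5487 and 5803 to 2598 and 1841 (log2 fold change -1.37, adjusted p = 0.0105). Cholesterol uptake, transport, storage and efflux had 4 of 30 higher, 2 lower and 24 not passing (median -0.03). VLDLR, a lipoprotein receptor, rose (log2 fold change 1.23, adjusted p = 0.0223), and NPC2, which hands cholesterol out of lysosomes (-1.09), and CAV1, the cholesterol-binding coat protein of caveolae (-1.43), fell. Other fatty acid synthesis and elongation genes had 2 of 39 higher, 3 lower and 34 not passing (median -0.39). ME1, the malic enzyme that supplies NADPH (-1.16), and DBI, the acyl-CoA binding protein (-1.21), fell, while SLC27A1, a fatty acid transport protein, rose (1.10). Glycerolipid synthesis and lipid droplet genes had 4 of 34 higher, 4 lower and 26 not passing (median -0.11). DGAT2, which makes triglyceride, rose from 124 and 185 to 516 and 375 normalized reads (log2 fold change 1.53, adjusted p = 0.0201), and MGLL, monoglyceride lipase, rose as well (1.30). CHKA, choline kinase (-1.16), and AGPAT5 (-1.12) fell. Beta-oxidation genes had 3 of 30 higher, 2 lower and 25 not passing (median 0.09). PPARGC1A, a coactivator of mitochondrial genes, rose (1.55), and CRAT, carnitine acetyltransferase (-1.30), and ABCD3, a peroxisomal transporter (-1.02), fell.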

How the data were processed

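RNA from 2 libraries of each line was sequenced. Per the submitters' processing notes, the authors used GRCh37 with HISAT2, DESeq2 and featureCounts (versions, kit, annotation, filters and strandedness: not given in the sources used here). Reads of overlapping genes therefore cannot be told apart. The deposited values are a read signal divided by size factors, called normalized reads here. In every column 1 read is worth a fixed amount (0.853 to 1.06), and division by it returned whole reads for 100% of values within 0.01 reads.

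Of 15346 rows, 67 without a name (0.031% to 0.0369% of reads) were left out. Genes passing edgeR's filterByExpr on recovered reads (minimum count 10, minimum total 15) numbered 14424. The main test was limma-trend on log2(value + 1), brain metastatic minus parental, a scale that understates changes of low genes, with Benjamini-Hochberg adjustment over all genes and a threshold of 0.05. edgeR's quasi-likelihood test, DESeq2 and limma-voom on recovered reads were alternatives, beside other scalings, filters, pseudocounts and leaving out each library. The functions were also run on simulated libraries that all had the same dispersion. Those libraries do not show how reliable calls are here, where brain metastatic library B stood apart. Lengths are those of each gene's longest protein-coding transcript in GENCODE v29 (GRCh38, matched by symbol), and promoters come from RefSeq. Versions were DESeq2 1.42.0, edgeR 4.0.16, limma 3.58.1, R 4.3.3 and Python 3.11.15.

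The members and lists were chosen with earlier results of these data known. Members may all be named; from each other list the rule took up to 2 called genes in each direction with at least 50 normalized reads, and the text names fewer.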

Additional observations from a re-analysis of the deposited data

How the results depend on the processing

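No paired analysis was possible because the table's columns carry no replicate number. Leaving out each library in turn gave 421 to 5257 calls over all genes (2079 with all 4 libraries), 0 to 16 members (7), 0 to 10 sterol steps (4) and 0 to 5 fatty acid synthesis steps (2), and a median difference of sterol from fatty acid steps between -0.474 and 0.0676. The lowest counts came without a parental library and the highest without a brain metastatic one, where the lone sample of a line is assumed to vary like the other line's pair. DESeq2 called 14 members, 8 sterol steps and 4 fatty acid synthesis steps, and TMM scaling, CPM scaling and limma-voom each called 7 sterol steps. Of the 7 members called, 5 (EBP, ELOVL1, HMGCS1, NSDHL and SCD) were called in all 9 other settings that kept the 4 libraries. The difference without CYP51A1 and ACAT2 was chosen after seeing the data.

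Signs turned only for members that were not called. Over the fits that left out a library the log2 fold change ran from -0.0084 to 1.07 for ACACB, -0.208 to 0.234 for ACLY, -0.184 to 0.26 for ACSL3, -0.158 to 0.115 for CPT1A, -0.633 to 0.272 for FASN, -0.557 to 0.148 for FDPS, -0.412 to 0.166 for MVD, -0.182 to 0.603 for PMVK and -0.593 to 0.216 for SREBF1. For ACLY it was also -0.0243 with CPM scaling, -0.0133 with TMM scaling, -0.0267 with DESeq2, -0.031 with edgeR and -0.0129 with limma-voom. CYP51A1, CPT1C, TM7SF2 and ACACB had the fewest reads, 17, 67, 77 and 122 in their lowest library. The cause of these changes was not tested.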
